A study of Mus musculus with 24 samples.

Results

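RSL24D1 is a ribosome assembly factor that joins the precursor of the large (60S) subunit in the nucleus and is replaced by the ribosomal protein RPL24 once the particle has reached the cytoplasm. Retinoic acid (RA) binds nuclear receptors and drives embryonic stem cells (ESCs) out of self-renewal, and in monolayer culture such cells take up mixed programs that include mesenchymal, extraembryonic and neural genes. The comparison described here asks how the transcriptome of mouse ESCs at day 4 of RA differed between cells transfected with siRNAs against Rsl24d1 (si-Rsl24d1) and cells transfected with control siRNAs (si-CTL), both without rescue. It was chosen by sample title and holds 6 of the 24 RNA-seq libraries of the series, 3 for each siRNA.

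All 6 libraries are from 1 ESC line, CGR8, kept for 4 days in 10 nM RA, and none had doxycycline, which in this study induces an ectopic RSL24D1 open reading frame for the rescue. The labels describe the cells without rescue as carrying an empty vector, whereas the study names the inducible CGR8-RESCUE line left without doxycycline as the control of its rescue for polysome profiles. Sources also differ on the culture medium, on LIF, on the time from transfection to collection and on the library kit (poly-A or total RNA). The study speaks of biological replicates and the labels do not say whether these are separate cultures. The p-values therefore measure only the spread between libraries within groups. That spread is pooled over all 24 libraries and is not that of these 6 alone. The other libraries are day 0 and rescued cells, and of these 6 (day 0 without rescue) and 6 (day 4 with rescue) give the same siRNA contrast with no library in common.

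The deposited values are log2(TPM + 1), in which TPM is an abundance corrected for transcript length and scaled to a fixed total. TPM sum to 1000000 in every library, so the depth is unknown and no counting error can be given. Levels below are in TPM, and fold changes are differences of log2(TPM + 1) between the siRNA groups, positive where the libraries labelled si-Rsl24d1 are higher, which understates the change of weakly expressed genes. Genes are called upregulated or downregulated at a Benjamini-Hochberg adjusted p below 0.01 (limma, 16447 genes tested) together with a difference of more than 0.848 on the log2 scale, which is 1.8-fold.

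Rsl24d1 itself (ENSMUSG00000032215, chromosome 9 from 73113426 to 73123333, GRCm38) was not called at day 4. It was at 95.9, 101 and 96.7 TPM in the si-CTL libraries and at 89.3, 96.3 and 99.8 TPM in the si-Rsl24d1 libraries. The ranges overlap, and the log2 fold change was -0.04 (SE 0.07, adjusted p = 0.66). With median of ratios scaling it was -0.20 (adjusted p = 0.0032), lower in si-Rsl24d1 but under the fold threshold, and with centring by transcript length -0.14 (adjusted p = 0.16). At day 0 the same contrast was -1.95 (141 against 35.7 TPM on average), and the difference between the days was 1.91 (SE 0.10, adjusted p = 2.7e-11). The level of the target gene is therefore a weak check of the labels of the day 4 libraries, and the directions given here rest on those labels.

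At day 4 without rescue, 268 of the 16447 genes tested (1.63%) were differentially expressed. Of these, 238 (1.45%) were upregulated and 30 (0.182%) downregulated, so that 88.8% of the calls were rises. The upregulated genes are led by genes of mesenchyme, extracellular matrix and the contractile cytoskeleton and by imprinted genes, whereas the genes that fell most are a mixed group headed by Ly6a and Gal. Protein coding genes made up 190 of the rises and 17 of the falls. At an adjusted p below 0.01 alone, 5087 genes (30.9%) passed, 4094 higher (24.9%) and 993 lower (6.04%). For 48.4% of the genes tested, the 3 libraries of one siRNA lay all above or all below those of the other. The median log2 fold change of all genes tested was 0.13, and with median of ratios scaling it was 0.00. The medians of the main gene lists are therefore also given relative to this median. The counts of called genes in each list are to be read beside the shares of all genes, 1.45% upregulated and 0.182% downregulated.

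The contrast carried a gradient with transcript length. When the genes tested were divided into 10 equal bins by their longest annotated transcript, the median log2 fold change went from -0.03 and -0.07 in the 2 bins of the shortest transcripts to 0.27 and 0.35 in the 2 bins of the longest. The bin of the longest transcripts held 57 upregulated and 0 downregulated genes, and the shortest 13 and 14. In the siRNA contrasts at day 0 and at day 4 with rescue the medians of the bins stayed between -0.05 and 0.04. By library, the median deviation of the longest bin minus that of the shortest was -0.26, -0.28 and -0.23 in si-CTL and -0.16, 0.30 and 0.25 in si-Rsl24d1 replicates 1, 2 and 3. Thus replicate 1 of si-Rsl24d1 was close to the si-CTL libraries in this measure, and replicates 2 and 3 were not. The si-CTL libraries were themselves at the low end of the series. Libraries at day 4 with rescue ran from 0.03 to 0.15, and those at day 0 from 0.02 to 0.31 without and from -0.24 to 0.05 with rescue. Which siRNA group the gradient belongs to was not tested.

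**Figure D1:**
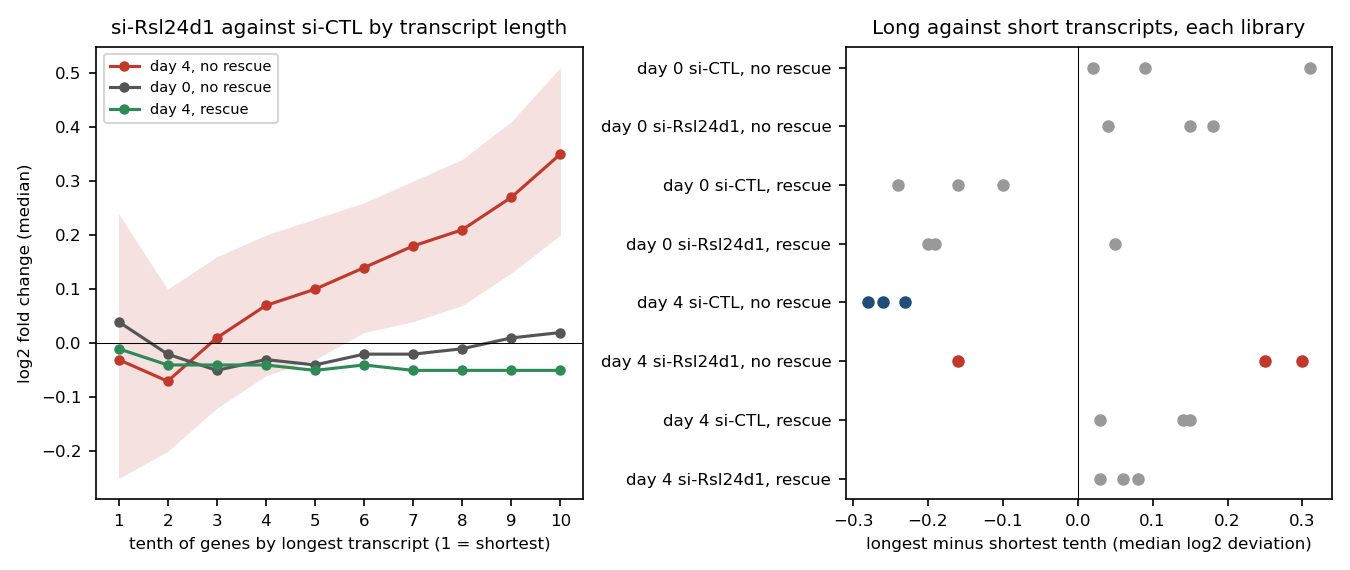
Left, median log2 fold change of si-Rsl24d1 against si-CTL in 10 bins of the genes by longest transcript, for the day 4 contrast without rescue (shading, middle 50% of genes) and the contrasts at day 0 and with rescue; right, the median log2 deviation of the longest bin minus that of the shortest in each of the 24 libraries. The day 4 contrast without rescue climbs to 0.35 in the longest bin, and si-Rsl24d1 replicate 1 lies at -0.16, apart from its replicates at 0.30 and 0.25.

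The day 4 contrast without rescue, and its differences from day 0 and from rescue, were also computed in 3 other ways. Scaling was planned, and centring by length and replicate 1 alone were added because of this gradient. The other contrasts were computed in the main fit only. With median of ratios scaling, 168 genes (1.02%) were called, 122 higher (0.742%) and 46 lower (0.280%), and 72.6% of the calls were rises. With each library centred within bins of transcript length, 144 of 16123 genes (0.893%) were called, 102 higher (0.633%) and 42 lower (0.260%), and 70.8% were rises. With si-Rsl24d1 replicate 1 alone set against the 3 si-CTL libraries, 157 genes (0.955%) were called, 135 higher (0.821%) and 22 lower (0.134%). In this last fit the lone library is assumed to vary like the other groups. Of the 238 upregulated genes, 122 were also called with scaling, 101 with centring by length and 121 with replicate 1 alone. Of the 30 downregulated genes these numbers were 30, 29 and 17. Scaling lowered the median of all genes from 0.13 to 0.00, so that it could take calls from the rises but hardly from the falls. The median difference of the upregulated genes from the si-CTL mean was 0.92 in replicate 1, 1.12 in replicate 2 and 1.05 in replicate 3.

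The largest rise among protein coding genes was that of Plagl1 (chromosome 10 from 13060504 to 13131694), an imprinted gene for a zinc finger transcription factor. It was at 6.88, 6.09 and 8.15 TPM in si-CTL and at 34.0, 41.3 and 38.8 TPM in si-Rsl24d1. The groups are far apart and replicate 1 lies with its group, and the log2 fold change was 2.28 (SE 0.12, adjusted p = 1.2e-10). Col3a1 (chromosome 1 from 45311538 to 45349706), a fibrillar collagen of loose connective tissue, was at 10.2, 14.3 and 11.6 TPM against 45.3, 52.5 and 60.4 TPM. Its change was 2.05 (SE 0.20, adjusted p = 3.4e-07). Plac1, an X-linked gene named for its expression in placenta, went from 1.26, 1.18 and 1.38 TPM to 8.62, 7.77 and 8.03 TPM. That is a change of 2.01 (SE 0.09, adjusted p = 1.5e-11) with the libraries of each group close together.

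Actc1, the cardiac isoform of alpha-actin, was at 25.2, 26.9 and 24.8 TPM in si-CTL and 95.3, 105 and 102 TPM in si-Rsl24d1 (log2 fold change 1.94, SE 0.12, adjusted p = 6.2e-10). Prrx1, a homeobox gene of limb and craniofacial mesenchyme, was near the lower limit of expression in si-CTL, at 0.378, 0.530 and 0.470 TPM. In si-Rsl24d1 it was at 3.22, 4.24 and 4.82 TPM, a change of 1.79 on the log2(TPM + 1) scale. Of the remaining genes in the group of 12 largest rises, Tnc and Smoc2 encode secreted matrix proteins, Ptn a heparin-binding growth factor, Cdh11 a mesenchymal cadherin, Gata2 a zinc finger transcription factor, Pgm5 a phosphoglucomutase-related protein of muscle and Nxf7 a member of the RNA export factor family. Their changes ran from 1.62 (Smoc2) to 1.87 (Tnc and Pgm5). All 12 genes were also called with scaling, with centring by length and with replicate 1 alone, and leaving out any of the 6 libraries kept the 12 calls.

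Among the falls, Ly6a (chromosome 15 from 74994877 to 74998031), which encodes the cell surface antigen Sca-1, came first. It was at 79.2, 71.4 and 69.6 TPM in si-CTL and at 24.1, 19.2 and 24.7 TPM in si-Rsl24d1, a log2 fold change of -1.66 (SE 0.09, adjusted p = 2.6e-10). Gal, the neuropeptide galanin, went from 6.31, 6.38 and 6.17 TPM to 2.55, 1.65 and 1.49 TPM (-1.35, SE 0.12, adjusted p = 7.4e-08). These groups do not overlap. Fabp5, a fatty acid-binding protein, was the most abundant of the 12 genes with the largest falls, at 118, 114 and 109 TPM against 62.0, 57.6 and 53.6 TPM (-0.97, SE 0.07). The annexin Anxa8 fell by 1.09, the slow skeletal and cardiac troponin C gene Tnnc1 by 1.02 and the cytochrome P450 gene Cyp2b23 by 1.02 on the log2 scale. Fthl17d and Fthl17c, ferritin heavy chain-like genes, changed by -0.99 and -0.96, but they are close copies that can share reads and are uncertain as single genes. Wfdc15a (-1.38), C130073F10Rik (-1.11), Dmrtc1c2 (-1.10) and Lemd1 (-0.98) complete the group. All 12 were called with scaling and with centring by length, and 10 with replicate 1 alone, where Wfdc15a was at -1.03 and Dmrtc1c2 at -0.73. Scaling moves changes downward, so it could hardly remove the call of a fall. Leaving out si-Rsl24d1 replicate 3, Dmrtc1c2 was at -0.84, under the threshold.

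**Figure D2:**
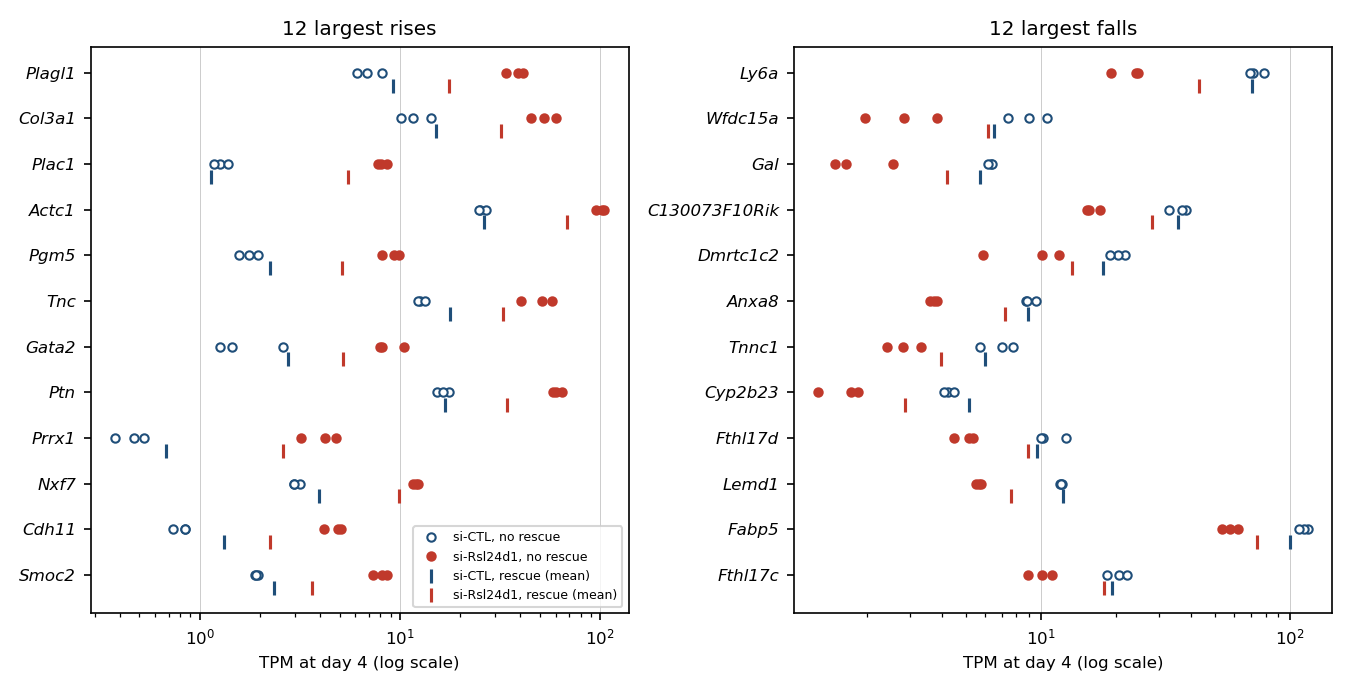
TPM (log axis) of the 12 protein coding genes with the largest rises (left) and the 12 with the largest falls (right) at day 4. Circles are the 3 libraries of si-CTL (open) and si-Rsl24d1 (filled) without rescue and vertical ticks the means of the 3 rescued libraries of each siRNA; the circles of the siRNA groups do not overlap in any row, and for each gene the ticks lie closer together than the circles' centres, as for Plagl1 at 9.27 and 17.6 TPM with rescue. The genes were picked for their change without rescue, which favours both patterns.

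Genes of mesenchyme, the loosely connected migratory tissue that forms connective tissue, bone and smooth muscle, were upregulated for 6 of 18 tested members, against 1.45% of all genes, and none was downregulated. The median log2 fold change of the list was 0.68, which is 0.55 above the median of all genes. Twist1, a basic helix-loop-helix factor of mesenchyme and neural crest, was at 3.83, 4.29 and 3.41 TPM in si-CTL and 11.3, 13.1 and 13.9 TPM in si-Rsl24d1 (log2 fold change 1.51, SE 0.10, adjusted p = 2.5e-09). Cdh2 (N-cadherin), which replaces E-cadherin when epithelial cells become mesenchymal, rose from 5.06, 5.04 and 5.11 TPM to 13.7, 18.3 and 17.5 TPM (1.52, SE 0.11). Prrx1 and Cdh11 belong to the same list. With scaling, with centring by length and with replicate 1 alone, 5 of the 18 were called, and the list median was 0.56, 0.40 and 0.62. The epithelial list, keratins and adhesion genes, had 0 of 15 called and a median of -0.01.

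Contractile genes of smooth muscle, which encode actin isoforms, myosin chains and calponins, were upregulated for 7 of 20 with a median of 0.64, or 0.52 above all genes. The list also holds Srf, a transcription factor gene. Acta2, smooth muscle alpha-actin (chromosome 19 from 34241090 to 34255590), was the most abundant of those named, at 308, 298 and 313 TPM against 625, 706 and 641 TPM. Its change was 1.10 (SE 0.08, adjusted p = 3.7e-09). Actg2, enteric gamma-actin, was at 0.937, 1.06 and 0.878 TPM against 4.58, 4.06 and 3.66 TPM (1.38, SE 0.09). The smooth muscle myosin heavy chain Myh11 changed by 1.13, but by 0.72 with centring by length, where it was not called. Of the 7 genes, 5 were also called with scaling, 5 with centring and 6 with replicate 1 alone. All 5 fixed markers of smooth muscle were above 1 TPM in at least 1 library, and their summed level was 708 to 761 TPM in si-CTL and 1360 to 1500 TPM in si-Rsl24d1. In bulk RNA, more cells of a type and more RNA of these genes per cell cannot be told apart.

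Contractile genes are a textbook set of targets of serum response factor, which binds the CArG box. The 250 bases before the annotated start (RefSeq, GRCm38.p6) were searched on both strands for this palindromic element, without mismatches. It was found for 5 of the 17 tested genes of the contractile list that have a promoter sequence. These 17 have 19 promoters, and over all genes 482 of 32851 promoters (1.47%) held the element. A higher share was to be foreseen in a list of known targets of the factor and is no result of the siRNA contrast. The 5 include Cnn2 (log2 fold change 0.48) and Srf (0.29), the gene of serum response factor itself, and neither was called. Stretches around the element are shown for Actc1 and Myl9 (log2 fold changes of 1.94 and 1.03), the pair of upregulated genes that hold it, and for Acta1, the skeletal alpha-actin gene, which holds it and was at -0.13. They are written 5′ to 3′ on the gene's strand with the CArG box in capitals. The Actc1 stretch is chr2:114052876-114052967 (minus strand), that of Myl9 chr2:156775258-156775357 (plus strand) and that of Acta1 chr8:123894794-123894893 (minus strand).
Actc1: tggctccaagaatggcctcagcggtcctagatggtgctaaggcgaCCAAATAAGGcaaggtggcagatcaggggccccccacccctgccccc
Myl9: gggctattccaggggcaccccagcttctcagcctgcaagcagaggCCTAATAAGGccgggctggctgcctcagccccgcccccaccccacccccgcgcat
Acta1: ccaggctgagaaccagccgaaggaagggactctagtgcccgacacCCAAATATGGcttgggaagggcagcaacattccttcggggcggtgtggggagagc
The first base of the box lies 47 bases before the start in Actc1, 161 in Myl9 and 73 in Acta1. The letters alone do not show that the factor binds there. The search allowed no mismatch, so variant boxes would be missed. Genes for which it found no exact match, such as Acta2, rose too, and whether they hold a variant was not tested.

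The extracellular matrix was represented by collagens and laminins, the fibres of connective tissue and the sheets of basement membranes. Of 43 tested, 11 were upregulated and none downregulated, with a median of 0.48, or 0.36 above all genes. Col1a1, the main collagen of bone and dermis, was at 37.5, 33.1 and 39.0 TPM in si-CTL and at 76.8, 126 and 109 TPM in si-Rsl24d1 (1.45, SE 0.15, adjusted p = 5.4e-07). Its replicate 1 lies nearer to si-CTL than replicates 2 and 3 do. Col12a1, a fibril-associated collagen, showed 8.16, 7.74 and 8.68 TPM against 17.7, 26.5 and 23.8 TPM, with the same order of replicates. These transcripts are long, with a median longest transcript of 6046 bases against 2950 for all genes tested, and the list had fewer calls in the other fits. It had 7 with scaling, 3 with centring by length (median 0.11, against -0.04 for all genes) and 3 with replicate 1 alone (median 0.28, against 0.06). Col3a1, Col1a1 and Col12a1 stayed called in all of these.

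The list of extraembryonic endoderm, the yolk sac lineage that RA also induces, had 7 of 20 upregulated and a median of 0.63, or 0.50 above all genes. All 20 were above 0, also with scaling. Lama1, a basement membrane laminin, rose by 1.12, Col4a1 by 1.10, the endocytic receptor gene Cubn by 1.09 and the lineage factor Gata6 by 0.99. Gata6 was at 1.58, 1.24 and 1.16 TPM in si-CTL and 2.88, 4.21 and 3.88 TPM in si-Rsl24d1, so that the groups do not overlap but replicate 1 is the lowest of its group. With scaling 4 of the 20 were called, with centring by length 0 and with replicate 1 alone 0, at medians of 0.52, 0.46 and 0.50. Among the 6 fixed markers, Sox7 was under 1 TPM in all 6 libraries, and the summed level was 14.7 to 19.1 TPM in si-CTL and 29.1 to 36.9 TPM in si-Rsl24d1.

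Imprinted genes, expressed from 1 parental copy and many of them regulators of embryonic and placental growth, rose for 7 of 28. All 28 had a log2 fold change above 0, as had 69.5% of all genes tested, and with scaling 26 of the 28 and 50.5% of all genes. The median was 0.49, or 0.36 above all genes. After Plagl1 the largest rises were those of Peg10, a retrotransposon-derived gene of the placenta (1.39), and Peg3, a zinc finger gene (1.34). Peg3 was at 79.1, 79.7 and 96.1 TPM in si-CTL and 174, 256 and 227 TPM in si-Rsl24d1. Igf2, the fetal growth factor, was one of the most abundant transcripts of the list, at 358, 338 and 370 TPM against 589, 766 and 677 TPM (0.92, SE 0.08). With scaling 3 genes of the list were called, with centring by length 4 and with replicate 1 alone 3. Igf2 was not among them, at 0.76, 0.60 and 0.73.

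Of 11 trophoblast genes 3 were upregulated, Plac1, Gata2 and Hand1, and the same 3 were called with scaling, with centring by length and with replicate 1 alone. Hand1, a basic helix-loop-helix factor of trophoblast giant cells and early heart, was at 7.23, 7.65 and 7.74 TPM against 16.6, 19.8 and 17.0 TPM (1.13, SE 0.07, adjusted p = 1.5e-09). The trophoblast determinants Cdx2 and Elf5 were both under 1 TPM in all 6 libraries. Among developmental transcription factor families, 5 of 35 were upregulated, with Irx1 (1.01) and Gata6 beside Gata2, Twist1 and Hand1. In the neural list, 2 of 18 rose, namely the growth cone protein gene Gap43 (1.22) and the intermediate filament gene Nes (1.17). Nes was not called with centring by length (0.83) or with replicate 1 alone (0.84), and Irx1 not with replicate 1 alone (0.83). Neural crest genes had 1 of 9 upregulated, Ets1 (0.93), which was called in none of the 3 other fits, and primitive streak and mesoderm genes 1 of 12, Hand1 again. The endothelial and blood lists had 0 called of 7 and of 5. In lists this short, 0 or 1 call is little different from the 1.63% called of all genes.

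**Figure D3:**
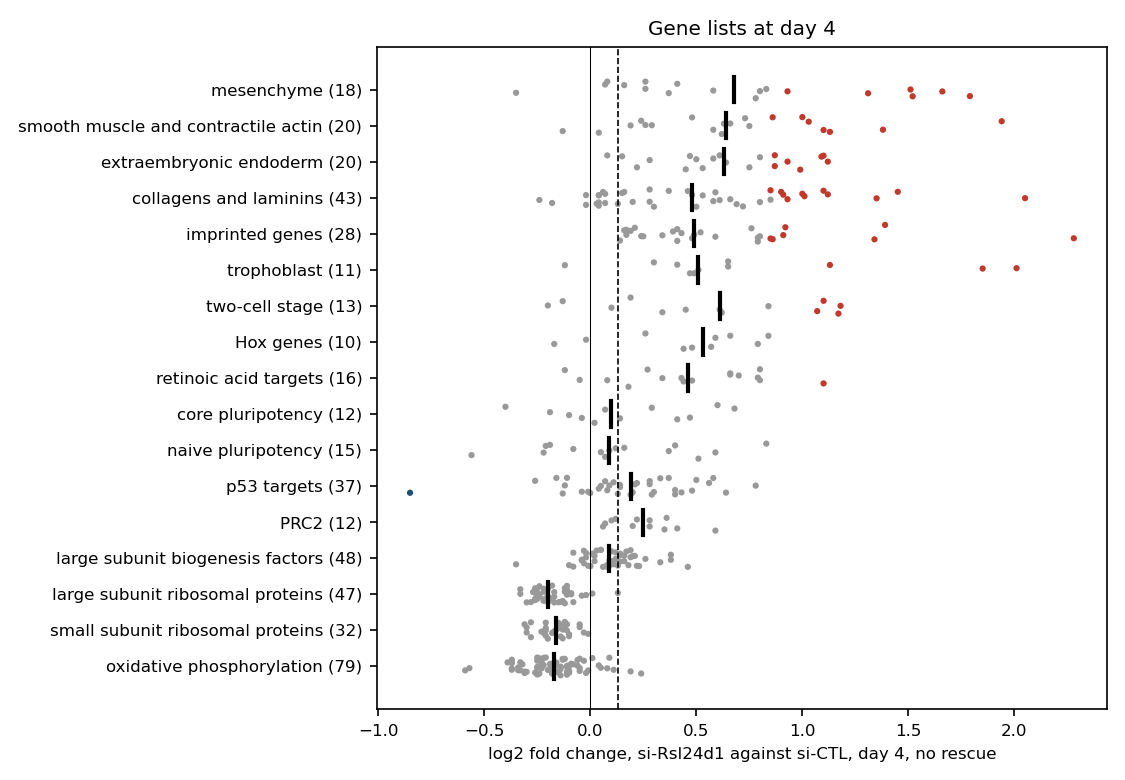
Log2 fold change at day 4 without rescue of each tested gene of 17 lists (number tested in brackets); red points are upregulated, blue downregulated and grey not called, bars are list medians and the dashed line is the median of all genes tested. Mesenchyme (median 0.68) and smooth muscle (0.64) lie highest, and both ribosomal protein lists lie below 0, at -0.20 and -0.16.

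The response to RA was read on genes that changed between day 0 and day 4 in rescued si-CTL cells, 6 libraries that take no part in the siRNA comparison. There, 2559 genes (15.6%) were called, 1767 higher at day 4 (10.7%) and 792 lower (4.82%). The days also differ in time in culture and, by the study's methods, in LIF and plating density. RA-induced and RA-repressed therefore mean only higher or lower at day 4. Of the 1767 RA-induced genes, 114 (6.45%) were upregulated and 21 (1.19%) downregulated in si-Rsl24d1. Of the 792 RA-repressed genes, 15 (1.89%) were upregulated and 0 downregulated. The median siRNA effect over the induced genes was 0.11, close to the 0.13 of all genes, and over the repressed genes 0.16. Thus 47.9% of the upregulated and 70.0% of the downregulated genes came from the 10.7% of genes that were RA-induced in this sense. A fall can be called only for genes expressed in si-CTL at day 4, and a rise only for genes expressed in si-Rsl24d1 at day 4. Both favour RA-induced genes. The RA contrast also had a gradient with transcript length in the same direction and was not centred. The longest bin minus the shortest was -0.10, -0.16 and -0.24 in rescued si-CTL at day 0 and 0.15, 0.03 and 0.14 at day 4. With the siRNA contrast centred by length, 57 of the induced genes were higher and 28 lower. Acta2, Actc1, Col3a1, Tnc and Ptn were RA-induced genes that were higher still in si-Rsl24d1, and Ly6a, Gal and Fthl17d were RA-induced genes that were lower.

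Direct targets of the RA receptors, which give an early readout of RA signalling, had 1 of 16 upregulated, the homeobox cofactor gene Meis1, and a median of 0.46, or 0.33 above all genes. Meis1 was at 8.04, 8.45 and 8.20 TPM against 16.8, 20.2 and 19.7 TPM (1.10, SE 0.09), but at 0.69 with centring by length, where it was not called. Of 39 Hox genes, which pattern the body axis, 10 were expressed highly enough to be tested. None was called, and their median was 0.53, which is 0.40 above all genes, and 0.41 with centring by length. RA receptors and metabolic enzymes had 0 of 19 called at a median of 0.25.

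No pluripotency factor was called. Pou5f1 (Oct4) was at 515, 547 and 496 TPM in si-CTL and 501, 495 and 518 TPM in si-Rsl24d1, with overlapping groups (-0.04, SE 0.04, adjusted p = 0.41). Nanog was at 323, 321 and 314 TPM against 287, 297 and 309 TPM, a difference of -0.10 (SE 0.04, adjusted p = 0.037). With scaling Pou5f1 was at -0.20 (adjusted p = 0.0042) and Nanog at -0.26 (adjusted p = 1.4e-06), and with centring by length Nanog was at -0.16 (adjusted p = 6.2e-04), all under the fold threshold. Sox2 and Zfp42, the latter a marker of naive ESCs, were both at 0.07, with adjusted p of 0.33 and 0.24, and at -0.09 with scaling. None of the 12 core and 15 naive pluripotency genes was called, with medians of 0.10 and 0.09. The 5 fixed ESC markers summed to 1523 to 1617 TPM in si-CTL and 1520 to 1640 TPM in si-Rsl24d1, and to 2342 to 2383 TPM in si-CTL cells at day 0. They did not move together between the days. In si-CTL without rescue the mean of Nanog was 184 TPM at day 0 and 319 TPM at day 4, whereas Pou5f1 (1112 and 519 TPM), Sox2 and Zfp42 were lower at day 4.

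Polycomb repressive complex 2 (PRC2), which places the H3K27me3 mark on silent developmental genes, had 0 of 12 subunit genes called. The catalytic subunit gene Ezh2 was at 0.06 (adjusted p = 0.45), Suz12 at 0.20 (adjusted p = 0.053) and Eed at 0.28 (adjusted p = 1.7e-05), the last from 124, 124 and 119 TPM to 146, 151 and 149 TPM. Eed thus differed beyond the spread of the libraries by less than the fold threshold, and it was at 0.12 with scaling. Trp53 (p53) was at 0.12 (adjusted p = 0.052). Its ubiquitin ligase gene and target Mdm2 was at 83.9, 85.7 and 85.8 TPM against 102, 117 and 119 TPM, a change of 0.40 (SE 0.06, adjusted p = 3.4e-05), and the cell cycle inhibitor gene Cdkn1a was at 0.21 (adjusted p = 0.0018). With scaling Mdm2 was at 0.24 (adjusted p = 5.0e-05) and Cdkn1a at 0.05 (adjusted p = 0.34), and with centring by length Cdkn1a was at 0.11 (adjusted p = 0.039). Of 37 p53 targets, 0 were upregulated at day 4 (median 0.19), whereas 28 were at day 0 (median 1.27). The 1 downregulated gene, Dcxr, a carbonyl reductase gene, fell by 0.85 at day 4 and was at 2.16 at day 0, and left the calls in 3 of 6 fits that leave out a library.

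Ribosomal protein genes were lower as a group, but by little. Of 47 genes of the large subunit, 0 were called and 45 lay below 0 (median -0.20), with 20 at an adjusted p below 0.01, and of 32 of the small subunit, 0 were called and 32 lay below 0 (median -0.16), with 10 at that level. Together they took 22.0, 22.0 and 21.2% of all TPM in si-CTL and 21.0, 18.4 and 18.0% in si-Rsl24d1. Replicate 1 lies next to the si-CTL libraries, and with replicate 1 alone the medians were -0.04 and -0.01. Nuclear-encoded subunits of oxidative phosphorylation, which are short transcripts too, followed the same pattern, with a median of -0.17, 30 of 79 lower at an adjusted p below 0.01, and -0.05 with replicate 1 alone. With centring by length these 3 medians were -0.23, -0.21 and -0.21. Rpl24, the cytoplasmic successor of RSL24D1, was at 1751, 1796 and 1728 TPM against 1794, 1445 and 1462 TPM, where replicate 1 falls within the si-CTL range (-0.17, SE 0.07, adjusted p = 0.037).

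Assembly factors of the large subunit had 0 of 48 called at a median of 0.09, and those of the small subunit 0 of 47 at 0.13, as all genes. Eif6, which keeps the immature 60S particle from joining the 40S, was at 0.06 (adjusted p = 0.29). Gtpbp4, a GTPase of early 60S assembly, was at 0.22 (adjusted p = 0.0012), but at -0.18 with centring by length. Targets of Atf4, the transcription factor of the integrated stress response, had 0 of 35 called at day 4 (median 0.22), against 1 higher and 16 lower at day 0 (median -0.82).

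Genes of the 2-cell embryo, which a small share of ESCs express at a time, were upregulated for 4 of 13, with a median of 0.61, or 0.48 above all genes. The 4 are Zscan4e (1.18), Zscan4a (1.17), Zscan4f (1.10) and Zscan4c (1.07), near-identical copies that can share reads, so they are better read as 1 signal. Zscan4f was at 23.8, 21.0 and 22.2 TPM in si-CTL and at 56.4, 42.4 and 48.9 TPM in si-Rsl24d1, with replicate 1 the highest. The list kept 4 calls with scaling, with centring by length and with replicate 1 alone. The siRNA contrast called 6 of the 13 at day 0 and 8 with rescue, and the Zscan4f change was 1.21 and 1.39 there, and neither interaction test called any of the 4. Germ cell and meiosis genes had 0 of 22 called and a median of 0.00, with 11 above 0 and 11 below. At an adjusted p below 0.01 alone, 9 were lower and 6 higher, against 6.04% and 24.9% of all genes. With scaling 2 were called lower, and with centring by length 1. The 4 fixed germ cell markers summed to 143 to 158 TPM in si-CTL and to 101 to 103 TPM in si-Rsl24d1.

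Lists of signalling, hypoxia, G1, immediate early and histone genes had 1 or 2 upregulated genes each, where 1.45% of all genes were upregulated. In the Nodal and BMP list, 1 of 20 rose, Tgfb2 (1.22), which was called in the 3 other fits as well. Wnt5a (0.93) and Rspo3 (0.86) were 2 upregulated genes of 29 Wnt genes, and Etv4 (0.93) and Etv1 (0.89), transcription factors downstream of FGF and ERK, 2 of 27 FGF genes. Adm (0.89) was 1 of 16 hypoxia genes, Ccnd2 (1.12), cyclin D2, 1 of 13 G1 genes, and Myc (0.93) and Atf3 (0.88) were 2 of 12 immediate early genes. None of the Wnt, FGF, hypoxia and immediate early calls remained with scaling, whereas Etv4, Adm and Myc were called with centring by length and Etv1, Adm and Atf3 with replicate 1 alone. Ccnd2 was called with scaling but not with centring by length (0.78) or with replicate 1 alone (0.72). Replication-dependent histone genes had 2 of 51 upregulated, H2ac11 (0.98) and Hist1h2bq (0.94), both at low levels, and none with scaling or with replicate 1 alone. Only 6 of the 51, without H2ac11, had a transcript length. In all, 29 of the 49 lists held no called gene.

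With rescue, the day 4 contrast called 120 genes (0.730%), 114 higher (0.693%) and 6 lower (0.0365%). Its libraries are separate from those without rescue. Of the 238 upregulated genes, 226 were above 0 with rescue and 53 were called there. The median of the 238 was 0.40 with and 1.00 without rescue, beside -0.04 and 0.13 for all genes. These 53 are 22.3% of the genes upregulated without rescue and 46.5% of those upregulated with rescue. Of the 30 downregulated genes, 24 were below 0 with rescue (median -0.38 against -0.99) and 0 were called. Both sets were selected by their change without rescue, so smaller medians in another contrast are expected from the selection alone. Plagl1 was at 8.12 to 10.3 TPM in rescued si-CTL and 15.6 to 19.0 TPM in rescued si-Rsl24d1 libraries. The former range overlaps that of si-CTL without rescue only at its edge, and the latter lies between the groups without rescue. The mean of si-CTL was 7.04 TPM without and 9.27 TPM with rescue, and that of si-Rsl24d1 38.0 and 17.6 TPM. A test of the difference between the contrasts called 84 genes (0.511%), 68 (0.413%) with the more positive change without rescue and 16 (0.0973%) with the more negative one. Among the 12 largest rises 6 passed it, Plagl1, Pgm5, Tnc, Ptn, Cdh11 and Smoc2, and among the 12 largest falls Ly6a, Wfdc15a, Gal and Fthl17d. Picking these genes for their size without rescue favours passing this test. With scaling the 84 genes became 47, of which 16 were more positive, and with centring by length 29, of which 11 were more positive.

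At day 0 without rescue, 687 genes (4.18%) were called, 560 higher (3.40%) and 127 lower (0.772%). Of the 238 genes upregulated at day 4, 36 were upregulated at day 0, or 15.1% of the day 4 list and 6.43% of the day 0 list, and none was downregulated. The median day 0 change of the 238 was 0.23, against -0.01 for all genes, and 176 of them were above 0. Of the 30 genes downregulated at day 4, 0 were downregulated and 2 upregulated at day 0. None of the 12 largest rises was called at day 0, where Col3a1 was at -0.15, Actc1 at -0.26 and Prrx1 at 0.01. However, 6 of the 12 had a mean under 1 TPM in si-CTL at day 0, from 0.0472 TPM for Pgm5 to 0.809 TPM for Actc1, so that a fall could hardly have been called there, and for these 6 the difference between days largely repeats the day 4 change. The test of the difference between days called 922 genes (5.61%), 477 (2.90%) more positive and 445 (2.71%) more negative at day 4. It included 11 of the 12 largest rises, all but Gata2, and 10 of the 12 largest falls. Picking these for their size at day 4 favours passing the test. It also included Mdm2 (-1.94, SE 0.08) and Cdkn1a (-0.97, SE 0.07), which rose at day 0, by 2.33 and 1.18, and Zfp42 (1.03), which was at -0.96 at day 0. With scaling, 275 of 857 genes were more positive at day 4, and with centring by length 246 of 818.

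**Figure D4:**
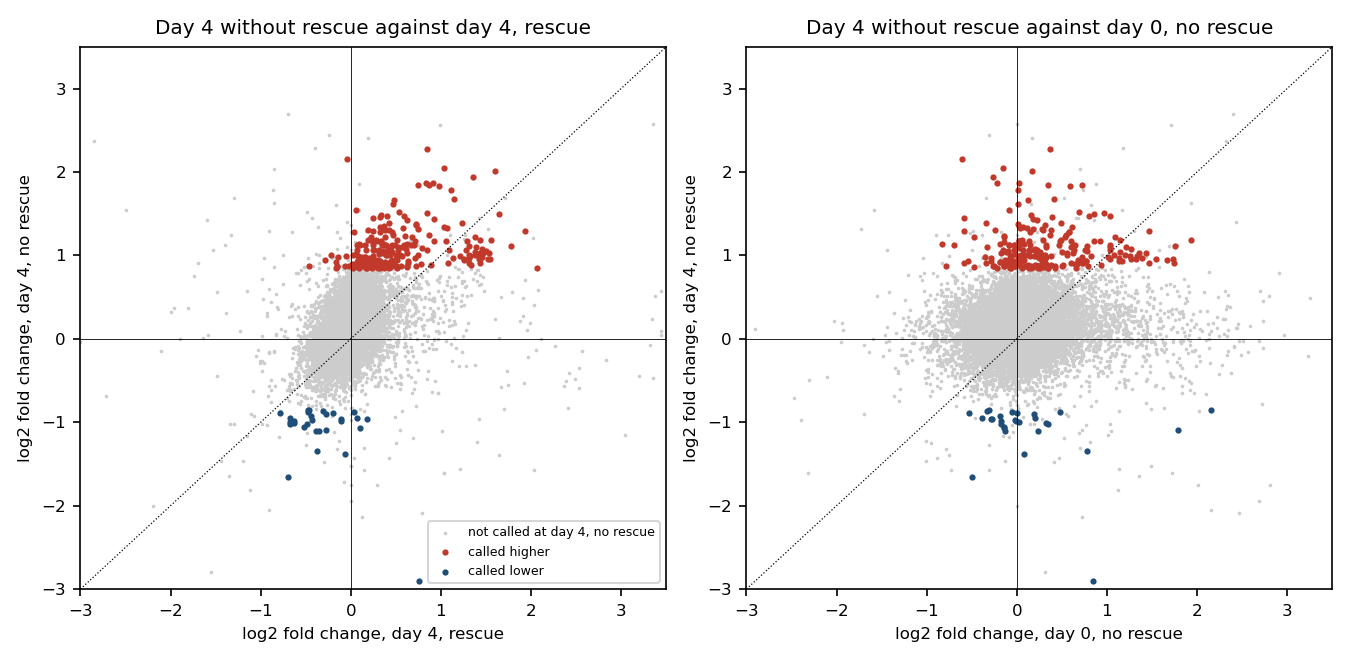
Log2 fold change of each tested gene at day 4 without rescue (vertical axis) against that at day 4 with rescue (left) and at day 0 without rescue (right), contrasts that share no libraries; red and blue mark the 238 upregulated and 30 downregulated genes at day 4 without rescue and the dotted line marks equal change, with 16 and 15 genes outside the axes. Most red points lie right of 0 but above the dotted line with rescue, which their selection at day 4 without rescue favours. At day 0 they spread to both sides of 0, with 176 of the 238 right of it.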

How the data were processed

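Per the methods, the authors estimated transcript levels with Salmon and imported them with tximport. They deposited log2 values, log2(TPM + 1), for 54242 gene symbols in 24 libraries. The labels name STAR 2.7.8a and Salmon 1.4.0 in the processing notes, and the methods other versions. Read counts, and so depth, were not used here, and no count model was fitted. Groups were read from the labels. Genes with a mean of at least 0.5 over all libraries (16447) entered a limma fit (version 3.58.1, R 4.3.3; 8 group means, empirical Bayes with trend, all 24 libraries), two-sided, with Benjamini-Hochberg adjustment within each contrast. The fit was tested on simulated data. Single genes were given no permutation test, which this number of libraries cannot bring under 0.05.

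Named genes are Rsl24d1, 13 genes of ribosome assembly, p53, pluripotency and PRC2, the 12 protein coding genes with the largest rises and the 12 with the largest falls (libraries not overlapping, a mean log2(TPM + 1) of at least 2 in the higher group), up to 4 called genes of each list in each direction and up to 5 of each interaction. Myl9 and Acta1, shown for their promoters, marker genes under 1 TPM and Acta2 as a gene without an exact match were chosen after values were seen. Members, gene lists and tests were chosen with earlier results of these data known. Transcript lengths and coordinates are from gencode vM21 (GRCm38), matched by symbol for 52259 symbols. Replicate numbers did not pair the libraries (see the correlations given with the alternatives), and 0 pairs of libraries were identical. Alternatives were other values added to the TPM, filters, samples in the fit, a replicate block, scaling, no fold threshold and each library left out. Centring within 20 bins of transcript length and the fit with si-Rsl24d1 replicate 1 alone were added after the gradient with length had been seen.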

Additional observations from a re-analysis of the deposited data

Results flagged for a closer look

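The siRNA effect differed between day 4 and day 0 without rescue for 922 genes by the interaction test, and between cells without and with rescue at day 4 for 84. The differences given here are log2 changes at day 4 without rescue minus those of the other contrast, and each comparison uses the day 4 libraries without rescue, so the 2 sets are not independent of one another or of the day 4 calls.

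Between days, 12 of 43 collagens and laminins had a more positive effect at day 4 and 2 a more negative one, and of 20 contractile genes 6 and 0. Of these lists, 10 and 5 genes had means under 1 TPM in both siRNA groups at day 0, where the difference largely repeats the day 4 change. The difference was 2.20 for Col3a1 and for Actc1, 2.09 for Tnc, 2.05 for Col1a1, 1.82 for Lama1, 1.61 for Smoc2, 1.42 for Acta2, 1.36 for Actg2, 1.32 for Col12a1, 1.07 for Thbs1 and 0.99 for Myh11. Regulators and growth factors on the same side were Plagl1 (1.91), Prrx1 (1.78), Sox6 (1.63), Myc (1.47), Tgfb2 (1.37), Ptn (1.24), Igf2 (1.11), Etv1 (0.99) and Etv4 (0.87). Plac1 and Pgm5 were both at 1.84, Cdh11 at 1.53, Nxf7 at 1.28, Cubn at 1.06 and Peg10 at 0.90. Ubap1l (2.07), Rsl24d1 (1.91) and Zfp42 (1.03) were also on this side, with effects of -1.55, -1.95 and -0.96 at day 0.

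More negative effects at day 4 included genes that rose at day 0. These are Shisal2b (-3.51), Dcxr (-3.02), Anxa8 (-2.88), Cpz (-2.77), 1700007K13Rik (-2.67), Mdm2 (-1.94), Cdkn1a (-0.97) and Gm21293 (-0.92). Among the genes that fell most at day 4, the difference was -2.13 for Gal, -1.46 for Wfdc15a, -1.37 for Cyp2b23, -1.34 for Dmrtc1c2, -1.15 for Ly6a, -0.99 for C130073F10Rik and for Fthl17d, -0.95 for Fabp5 and -0.85 for Tnnc1.

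Between cells without and with rescue, the effect was more positive without rescue for Sox6 (1.48), Ndufa4l2 (1.46), Plagl1 (1.43), Gm21060 (1.37), Thbs1 (1.23), Col1a1 (1.21), Cdh11 (1.18), Smoc2 (1.15), Tnc (1.02), Peg3 (1.02), Ccnd2 (1.01), Tgfb2 (1.00), Cdh2 (0.98), Col12a1 (0.98), Peg10 (0.96), Pgm5 (0.96) and Ptn (0.85). It was more negative for Wfdc15a (-1.32), Gal (-0.98), Ly6a (-0.96), Fthl17d (-0.89) and Gm21293 (-0.89). Sox6, a transcription factor of cartilage and muscle, was at 1.54 without and 0.06 with rescue. Its mean was 1.01 TPM without and 2.46 TPM with rescue in si-CTL, and 4.85 and 2.57 TPM in si-Rsl24d1. The si-CTL mean was higher with rescue for each gene named here as more positive except Ndufa4l2 (3.30 TPM without, 2.84 TPM with). Part of the smaller change with rescue is thus a difference between the si-CTL groups. The longest transcripts of Sox6, Thbs1, Col1a1 and Col12a1 have 8668, 5848, 5930 and 11511 bases, and the gradient with transcript length was seen without rescue and not with rescue. With each library centred by transcript length, 29 genes passed this test in place of 84.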

How the results depend on the processing

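The 268 genes called at day 4 without rescue became 601 with 0.1 and 158 with 2 added to the TPM, 168 with median of ratios scaling, 5087 without the fold threshold, 144 with centring by transcript length and 157 without si-Rsl24d1 replicates 2 and 3. The same contrast with rescue gave 120. With 1 library left out the number was 209 to 398, the highest without si-Rsl24d1 replicate 1. The 922 genes whose effect differed between days became 1452 with 0.1 added and 5082 without the fold threshold, and 864 to 1130 with 1 library left out. The 84 genes whose effect differed with rescue became 158 with 0.1 and 54 with 2 added, 54 with only the groups compared, 47 with scaling, 1472 without the fold threshold, 29 with centring by length and 14 without si-Rsl24d1 replicates 2 and 3, and 42 to 289 with 1 library left out. It was 132 without si-CTL replicate 3 at day 4, 289 without si-Rsl24d1 replicate 1, 42 without replicate 2 and 53 without replicate 3. No cause was tested beyond the length and scaling fits themselves.

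Among the named genes, the direction turned only for genes with small changes. With scaling these were Eif6 (-0.10), Trp53 (-0.04), Sox2 (-0.09), Zfp42 (-0.09) and Ezh2 (-0.10), with centring by length Eif6 (-0.04), Gtpbp4 (-0.18), Trp53 (-0.07), Sox2 (-0.03), Zfp42 (-0.06), Ezh2 (-0.09) and Suz12 (-0.03), and with si-Rsl24d1 replicate 1 alone Rpl24 (0.03), Eif6 (-0.04) and Sox2 (-0.04). The change of Rsl24d1 was -0.20 with scaling (adjusted p = 0.0032) and under the fold threshold in every fit.

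Same-numbered libraries of the siRNA groups at day 4 correlated at -0.13, -0.08 and 0.04 in their deviations from the group means, so the numbers do not pair them, and no library correlated best with its own number. With replicate number as a block, 263 genes were called at day 4, 921 between days and 71 by rescue, and Rsl24d1 stayed at -0.04. Depth is unknown, and changes of genes near 1 TPM depend most on the value added.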
